A study of Homo sapiens with 16 samples.

Results

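The 8 genes SNAI1, SNAI2, TWIST1, ZEB1, ZEB2, ETS1, NR2F1 and NR2F2 encode transcription factors of the epithelial-to-mesenchymal transition (EMT) and of the late neural crest. They were taken from the authors' deposited table as the rows whose gene name equals a listed name, and all 8 were found among its 23284 genes. The cells were WA01, a human embryonic stem cell line, driven to neural crest by 3 µM of the GSK3 inhibitor CHIR99021, and their poly-adenylated RNA was sequenced; medium also held 10 µM of the ROCK inhibitor Y-27632 at the start. The question was how removal of FOXB1, a forkhead transcription factor, alters gene expression over the induction. The labels give 16 libraries, 2 for each genotype and day: the FOXB1 KO line, the FOXB1 Het line and 2 isogenic wild-type (WT) lines, each at day 5 (called neural crest) and day 3 (called pre-neural crest). Het and KO are each 1 line, both made with a single guide RNA at the translational start of FOXB1, so line and genotype cannot be told apart.

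Neural crest cells arise at the border of the neural plate, lose their epithelial contacts in an EMT and migrate away. Snail factors (SNAI1, SNAI2) and Zeb factors (ZEB1, ZEB2) are zinc-finger proteins that bind E-boxes and repress epithelial genes such as the cadherin CDH1. TWIST1 is a basic helix-loop-helix factor of mesenchymal cells, ETS1 belongs to the ETS family and takes part in the delamination of cranial crest in chick embryos, and NR2F1 and NR2F2 (COUP-TFI and COUP-TFII) are paralogous orphan nuclear receptors active in human cranial crest.

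The authors' deposited table has 1 level per gene and group, in FPKM (fragments per kilobase of transcript and per unit of mapped fragments), for 6 groups: KO, Het and WT at day 5 and at day 3. Its KO columns carry the name HOMO, and its single WT group per day stands against 4 WT libraries in the labels, without saying which of them entered. Values per library and counts were not at hand, so depth is unknown here. Between 13099 and 13562 genes reached 1 FPKM in a group. FOXB1 itself stood at 1.86, 4.47 and 5.51 FPKM in KO, Het and WT at day 5, and at 15.5, 7.73 and 18.3 FPKM in KO, Het and WT at day 3. An edit at the start codon need not lower the transcript, so these levels do not check the labels. Of 8 neural crest markers, 8 reached 1 FPKM in KO, 8 in Het and 5 in WT at day 5; SOX10 was at 34.6 FPKM in KO, 7.07 in Het and 0.388 in WT, and FOXD3 at 18.6, 4.49 and 0.198 FPKM. The day 5 WT group, labelled neural crest, therefore held these defining markers below 1 FPKM. The RNA is from whole cultures, in which fewer cells of a type and less RNA per cell cannot be told apart.

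Calls below mean a q-value under 0.05 in the authors' deposited table. Standard errors (SE) of log2 changes were worked out from the test scores in that table. The deposited p-values are smaller than these SEs give under a normal curve, so a called gene can have a change of less than 2 SE. TWIST1 had no test in any comparison, which leaves 7 members tested. Nothing says that replicates came from separate cultures, so the p-values cannot be read as covering the spread between cultures or between lines.

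By day 5 the KO line had more ETS1, NR2F1 and ZEB1 RNA than WT and less NR2F2 RNA, while SNAI1, SNAI2 and ZEB2 were not called. From day 3 to day 5, SNAI2, ZEB1, ETS1, NR2F1 and NR2F2 rose in all 3 lines. ZEB2 was at 21.5 to 29.9 FPKM throughout. TWIST1 stayed below 1 FPKM in every group.

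**Figure D1:**
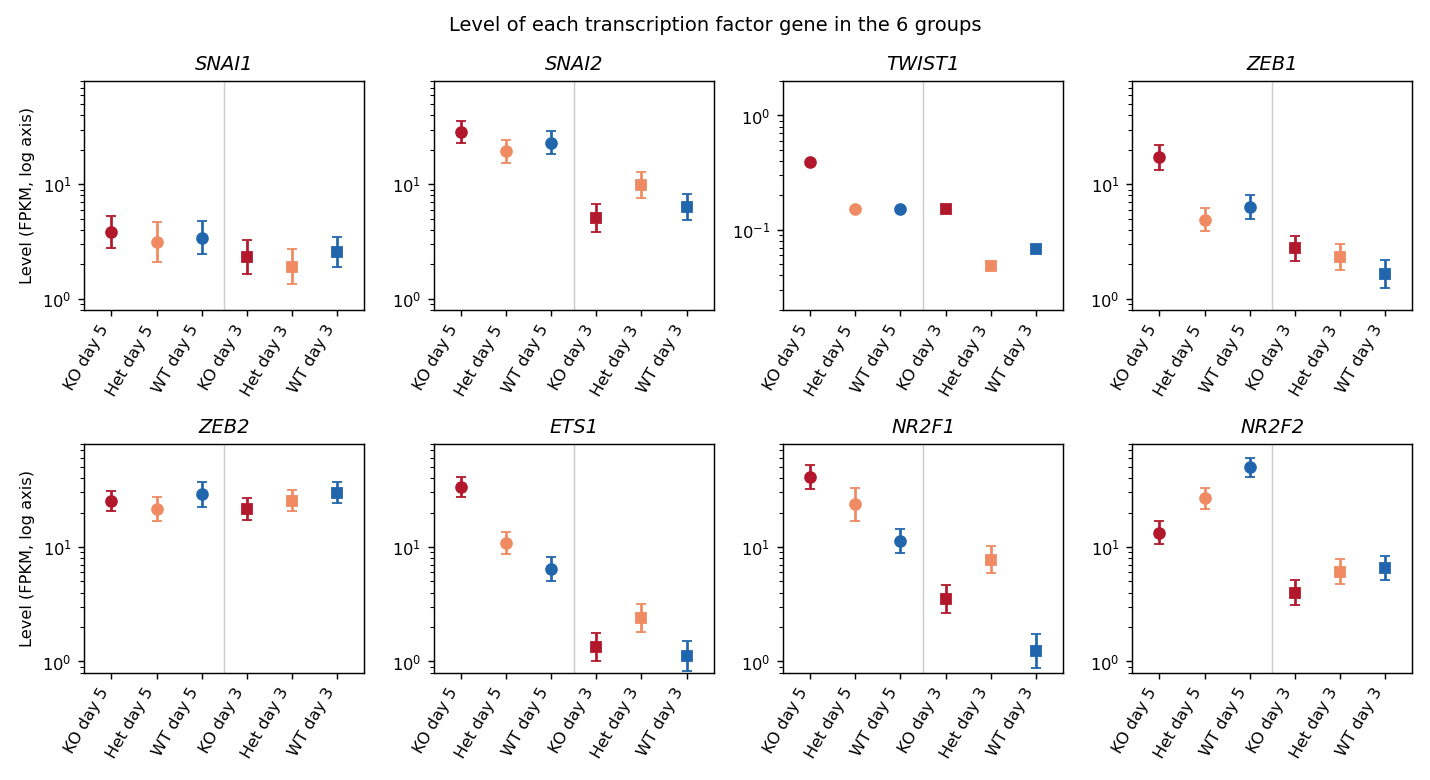
Level of each of the 8 members in FPKM (log axis, with the same range in each panel except that of TWIST1) in KO, Het and WT at day 5 and day 3, from the authors' deposited table. Points are group levels and bars are 1 SE worked out from the deposited test scores, with none for TWIST1, which was not tested. ETS1 and NR2F1 were highest in KO at day 5 (33.5 and 41.1 FPKM), NR2F2 was highest in WT at day 5 (49.6 FPKM), and ZEB2 varied least.

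SNAI1 (chr20:48599512-48605420 in hg19, the build of all gene positions here) is the Snail factor that opens EMT in mouse gastrulation. Its levels were 3.83 FPKM in KO, 3.11 in Het and 3.42 in WT at day 5, and 2.31 FPKM in KO, 1.90 in Het and 2.57 in WT at day 3. All 3 day 5 levels lay above all 3 day 3 levels, but 0 of the 15 pairs of groups were called by Cuffdiff in the authors' deposited table, and 2 had an unadjusted p under 0.05. The SE was 30.8% to 40.4% of the level, so that between KO and WT at day 5 the log2 change of 0.16 had a 95% interval of -1.15 to 1.47.

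SNAI2 (chr8:49830238-49833999), the Snail factor best known for crest delamination in chick embryos, was more abundant and changed mainly with day. It stood at 28.5 FPKM in KO, 19.5 in Het and 23.2 in WT at day 5, and at 5.07 FPKM in KO, 9.85 in Het and 6.35 in WT at day 3. Het had the lowest of the 3 levels at day 5 and the highest at day 3. In the order of levels, the only neighbours called in the authors' deposited table were Het at day 5 and Het at day 3. SNAI2 made up 88.2%, 86.2% and 87.1% of the summed SNAI2 and SNAI1 FPKM in KO, Het and WT at day 5, and 68.7%, 83.8% and 71.2% in KO, Het and WT at day 3.

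TWIST1 (chr7:19155090-19157295) was at 0.391 FPKM in KO, 0.152 in Het and 0.151 in WT at day 5, and at 0.153 FPKM in KO, 0.0480 in Het and 0.0686 in WT at day 3. The authors' table has no test for it, so no order is read from these levels.

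ZEB1 (chr10:31608100-31818742) was at 17.2 FPKM in KO, 4.89 in Het and 6.36 in WT at day 5, and at 2.77 FPKM in KO, 2.32 in Het and 1.65 in WT at day 3. KO at day 5 stood alone at the top. Of the neighbours in the order of levels, KO and WT at day 5 were the only pair called in the authors' deposited table.

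ZEB2 (chr2:145141941-145278466) was at 25.3 FPKM in KO, 21.5 in Het and 28.8 in WT at day 5, and at 21.5 FPKM in KO, 25.3 in Het and 29.9 in WT at day 3. WT had the highest level on both days, but 0 of 15 pairs were called by Cuffdiff in the authors' deposited table and 0 had an unadjusted p under 0.05. The highest level was 1.39 times the lowest. With ZEB2 this even and ZEB1 not, ZEB1 made up 40.5%, 18.5% and 18.1% of the summed ZEB1 and ZEB2 FPKM in KO, Het and WT at day 5, and 11.4%, 8.40% and 5.22% in KO, Het and WT at day 3. ZEB2 was the more abundant Zeb gene in all 6 groups.

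ETS1 (chr11:128328655-128457453) was at 33.5 FPKM in KO, 10.9 in Het and 6.45 in WT at day 5, and at 1.34 FPKM in KO, 2.40 in Het and 1.12 in WT at day 3. The day 5 levels followed the order KO, Het, WT, and the highest of the 6 levels was 29.8 times the lowest. Of 15 pairs of groups, 12 were called in the authors' deposited table, and the pairs not called were Het and WT at day 5, KO and Het at day 3, and KO and WT at day 3.

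NR2F1 (chr5:92919042-92929786) was at 41.1 FPKM in KO, 23.6 in Het and 11.3 in WT at day 5, and at 3.51 FPKM in KO, 7.76 in Het and 1.23 in WT at day 3. Both edited lines lay above WT on both days, and the highest level was 33.4 times the lowest. NR2F2 (chr15:96869156-96883492) ran the other way at day 5. It was at 13.4 FPKM in KO, 26.7 in Het and 49.6 in WT at day 5, and at 3.99 FPKM in KO, 6.08 in Het and 6.54 in WT at day 3. At day 5 the NR2F2 order was WT, Het, KO, with each step called in the authors' deposited table, while no pair of its day 3 levels was called. NR2F1 made up 75.4% of the summed NR2F1 and NR2F2 FPKM in KO, 46.9% in Het and 18.6% in WT at day 5. At day 3 its share was 46.8% in KO, 56.1% in Het and 15.9% in WT.

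**Figure D2:**
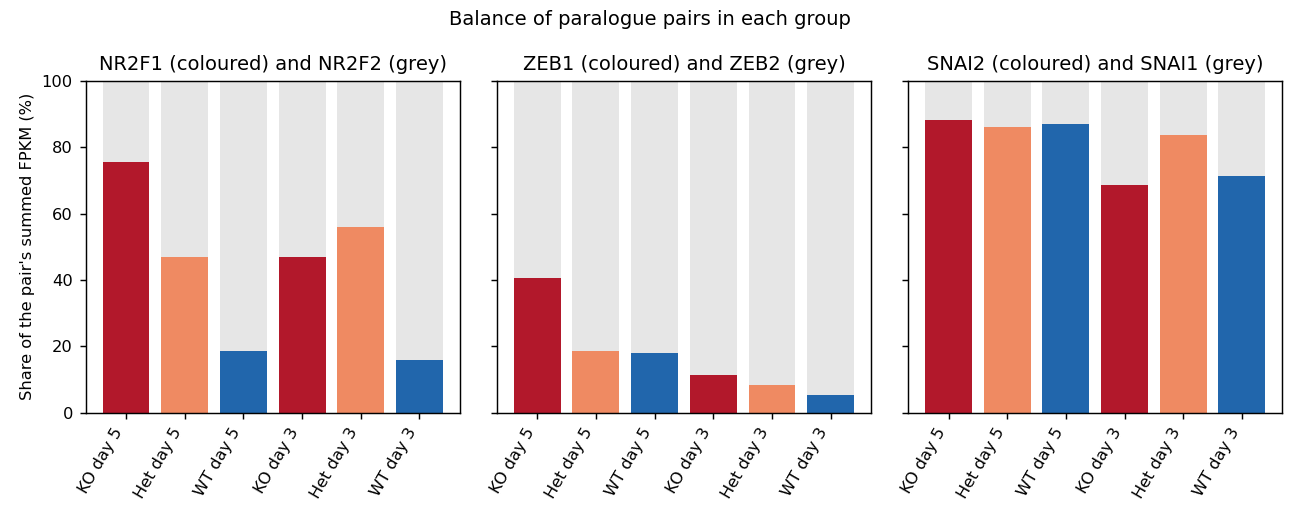
Share (percent) of the first-named gene in the summed FPKM of 3 pairs, NR2F1 with NR2F2, ZEB1 with ZEB2 and SNAI2 with SNAI1, for KO, Het and WT at day 5 and day 3. Coloured bars are shares of group levels, with the second gene in grey and no replicate error at hand. The NR2F1 share was 75.4% in KO and 18.6% in WT at day 5.

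RefSeq promoter windows (build GRCh38.p14, 300 bases around a transcript start) were at hand for ZEB1, ZEB2, NR2F1 and NR2F2, 12 windows in all. They were searched on both strands for CACCTG, the E-box bound by Snail and Zeb factors, for TGTTTAC, a forkhead motif, and for AGGTCA, the half-site of nuclear receptors. Those letters occur in 19.7%, 2.87% and 11.7% of all 19789 windows. ZEB1 has 7 windows, and the ones below are shown since they hold the most E-box and forkhead matches, in capitals. The first (chr10:31318966-31319265, plus strand) has CACCTG or its reverse complement CAGGTG at positions -242, -85 and 34 from the transcript start, and 0.5% of all windows have 3 or more. The second window (chr10:31321410-31321709, plus strand) has GTAAACA and TGTTTAC side by side at positions 10 and 17, and 0.0505% of all windows have 2 or more. Both windows were picked from 7 for their matches, so these shares of single windows do not measure how rare such matches are for a gene.
ZEB1 first window: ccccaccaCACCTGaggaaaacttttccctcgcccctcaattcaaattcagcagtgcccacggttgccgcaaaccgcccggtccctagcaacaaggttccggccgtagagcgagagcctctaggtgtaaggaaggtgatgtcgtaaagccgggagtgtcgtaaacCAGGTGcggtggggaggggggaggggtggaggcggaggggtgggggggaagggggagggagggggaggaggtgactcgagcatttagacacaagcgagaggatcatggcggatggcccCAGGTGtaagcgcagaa
ZEB1 second window: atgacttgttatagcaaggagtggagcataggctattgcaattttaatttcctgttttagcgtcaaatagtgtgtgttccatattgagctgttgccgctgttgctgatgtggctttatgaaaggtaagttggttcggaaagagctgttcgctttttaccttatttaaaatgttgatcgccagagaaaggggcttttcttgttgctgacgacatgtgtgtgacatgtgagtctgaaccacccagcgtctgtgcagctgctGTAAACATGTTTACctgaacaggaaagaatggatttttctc
Of the 2 windows each of the paralogues NR2F1 and NR2F2, the one of lowest coordinate is printed. These are chr5:93582972-93583271 for NR2F1 and chr15:96332315-96332614 for NR2F2, both plus strand. Part of the NR2F2 window reads as protein code of the receptor, so the 2 printed windows are not matched upstream stretches. None of the 3 motifs occurs in them, nor in the other NR2F1, NR2F2 and ZEB2 windows.
NR2F1 window: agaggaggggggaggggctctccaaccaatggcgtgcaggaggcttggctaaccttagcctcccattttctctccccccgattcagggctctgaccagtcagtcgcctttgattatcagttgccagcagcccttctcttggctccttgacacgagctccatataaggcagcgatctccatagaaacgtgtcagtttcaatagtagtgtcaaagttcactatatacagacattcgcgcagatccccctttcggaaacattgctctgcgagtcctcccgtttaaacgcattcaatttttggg
NR2F2 window: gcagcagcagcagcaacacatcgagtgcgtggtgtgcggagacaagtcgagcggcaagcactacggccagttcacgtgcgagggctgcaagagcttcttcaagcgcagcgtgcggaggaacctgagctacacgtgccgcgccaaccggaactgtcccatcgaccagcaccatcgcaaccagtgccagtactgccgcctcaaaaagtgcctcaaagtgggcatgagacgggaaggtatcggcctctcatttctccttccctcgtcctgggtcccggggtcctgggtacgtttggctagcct
A match is a run of letters and not evidence of binding, and no match says nothing about a factor.

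Between the KO line and WT at day 5, 4 of 7 tested members were called in the authors' deposited table, 3 higher and 1 lower, where 13.3% of all tested genes were called (7.58% higher, 5.68% lower). Their median log2 change was 0.30, against 0.03 over all tested genes. ETS1 rose 5.19-fold (log2 change 2.38, SE 0.45) and NR2F1 3.63-fold (1.86, SE 0.49), with ZEB1 at 2.71-fold (1.44, SE 0.50), each with Cuffdiff q = 0.00126 in the authors' deposited table. That q is the smallest the table holds. NR2F2 fell by 1.89 on the log2 scale (SE 0.43, the same q), which is 3.70-fold lower in KO. SNAI2 had a log2 change of 0.30 with a 95% interval of -0.62 to 1.22, and ZEB2 one of -0.19 with an interval of -1.09 to 0.71.

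The Het line shared both nuclear receptor calls at day 5. Against WT, 2 of 7 members were called in the authors' deposited table, where 2.16% of all tested genes were (1.14% higher, 1.02% lower), and the member median was -0.25 against -0.03 over all genes. NR2F1 rose (log2 change 1.06, SE 0.59, q = 0.0277) and NR2F2 fell (-0.89, SE 0.42, q = 0.0152) by the authors' deposited table. Both calls ended when the authors' p-values were adjusted within this comparison alone (adjusted p = 0.167 for NR2F1 and 0.0985 for NR2F2), and NR2F1 also missed the threshold after centring within bins of transcript GC content (0.0754). ETS1 had a log2 change of 0.76 (SE 0.47) with q = 0.107 in the authors' deposited table, and under the GC bins it passed (0.92, adjusted p = 0.0259).

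KO and Het were set against each other at day 5, and 3 of 7 members were called in the authors' deposited table, where 8.06% of all tested genes were (5.55% higher, 2.51% lower). ZEB1 rose (log2 change 1.82, SE 0.49) and ETS1 rose (1.61, SE 0.43), both with Cuffdiff q = 0.00126, while NR2F2 fell (-0.995, SE 0.45, q = 0.0214) by the authors' deposited table. NR2F1 had a log2 change of 0.80 (SE 0.59, q = 0.146) there. The median was 0.55 for the members and 0.05 over all tested genes. The comparisons of KO with WT and of Het with WT share the WT group, and those of KO with Het share both edited lines.

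At day 3 the calls were fewer, and NR2F1 was the member called in both edited lines. Against WT, NR2F1 rose in KO (log2 change 1.51, SE 0.64, q = 0.00935) and was the 1 member called of 7 in the authors' deposited table, where 9.51% of tested genes were called (4.34% higher, 5.17% lower). In Het, NR2F1 rose by 2.65 (SE 0.63, q = 0.00126) and ETS1 by 1.09 (SE 0.59, q = 0.0424), 2 of 7 in the authors' deposited table against 6.31% of tested genes (1.68% higher, 4.63% lower). The ETS1 call ended with the authors' p-values adjusted within the comparison (adjusted p = 0.0788) and within GC bins (0.0799). Between KO and Het at day 3, 0 of 7 members were called by Cuffdiff, where 2.84% of tested genes were (2.3% higher, 0.54% lower). At an unadjusted p under 0.05 there were 3 in the authors' deposited table, SNAI2 (log2 change -0.96, p = 0.0167), ETS1 (-0.84, p = 0.0433) and NR2F1 (-1.14, p = 0.00635, q = 0.0538). With calls remade from the authors' test scores after rescaling of the SEs, 1 was called, NR2F1 (adjusted p = 0.0417). Member medians were -0.15 for KO against WT, 0.50 for Het against WT and -0.61 for KO against Het, beside medians of -0.02, -0.04 and 0.01 over all tested genes.

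**Figure D3:**
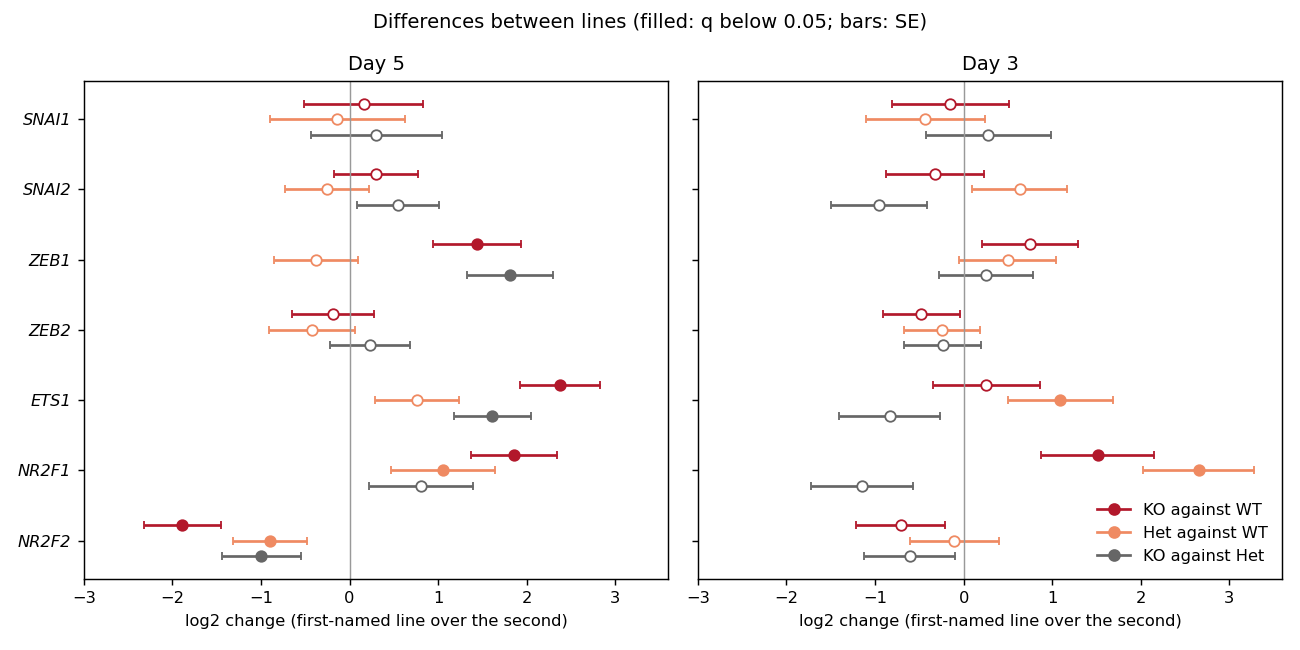
Log2 change of each tested member for KO against WT, Het against WT and KO against Het, at day 5 and day 3, with bars of 1 SE. Filled points were called in the authors' deposited table (q below 0.05). At day 5, ETS1 (2.38) and NR2F1 (1.86) lie above 0 and NR2F2 (-1.89) below 0 for KO against WT.

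Changes against WT ran with transcript GC content. For KO against WT at day 3, bin medians of log2 change averaged 0.18 in the lowest 20% by GC and -0.54 in the highest. For Het against WT at day 3 they averaged 0.22 and -0.55, and for KO against Het -0.03 and 0.002. At day 5 the direction was reversed, with -0.10 and 0.12 for KO against WT and -0.20 and 0.21 for Het against WT. NR2F1, at 60.2% GC, lies toward the high end, and centred within GC bins its day 3 change was 1.85 in KO and 3.02 in Het, larger than without centring. Markers of other cells also differed. The summed FPKM of 8 mesoderm and endoderm markers was 16.9 in KO, 0.779 in Het and 1.07 in WT at day 3, with 3, 0 and 0 of them at 1 FPKM or more. At day 5 it was 3.54, 0.763 and 0.642, with 0 of 8 at 1 FPKM in each of the 3 groups. The 6 neural progenitor markers summed to 61.4 FPKM in KO, 123 in Het and 169 in WT at day 5, and the 8 neural crest markers to 203, 82.5 and 34.6 FPKM. The 6 mesenchyme markers summed to 173, 114 and 72.7 FPKM in KO, Het and WT at day 5, an order carried by COL1A2 (154, 95.04 and 52.0 FPKM). COL1A1 (14.5, 16.5 and 18.8 FPKM) and COL3A1 (0.185, 0.974 and 1.01 FPKM) ran the other way. PDGFRA (1.82, 1.11 and 0.670 FPKM), PRRX1 (1.48, 0.0730 and 0.124 FPKM) and TWIST2 (0.210, 0.198 and 0.148 FPKM) were, like COL1A2, highest in KO. The part of these differences in the members' changes was not tested.

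The same 5 members rose from day 3 to day 5 in each line. In KO, 5 of 7 were called higher in the authors' deposited table, where 7.29% of all tested genes were called higher and 4.53% lower (11.8% in all). ETS1 rose 24.9-fold (log2 change 4.64, SE 0.51), followed by NR2F1 (3.55, SE 0.54), ZEB1 (2.64, SE 0.51), SNAI2 (2.49, SE 0.51) and NR2F2 (1.75, SE 0.49), each with q = 0.00126 in the authors' deposited table. The member median was 2.49 against 0.08 over all tested genes.

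In WT, the same 5 were called, where 11.2% of tested genes were called higher and 10.4% lower (21.6% in all). NR2F1 rose by 3.20 (SE 0.59), NR2F2 by 2.92 (SE 0.45), ETS1 by 2.52 (SE 0.56), ZEB1 by 1.95 (SE 0.53) and SNAI2 by 1.87 (SE 0.52), each with q = 0.00126 in the authors' deposited table. The median was 1.95 for the members and 0.01 over all tested genes. In this comparison too the bin medians ran with GC, averaging 0.38 in the lowest 20% and -0.59 in the highest 20%, and all 5 calls held within GC bins.

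In Het, 5 were called higher where 4.74% of tested genes were and 2.83% were lower (7.57% in all), with a median of 1.07 against 0.05. ETS1 rose by 2.19 (SE 0.51), NR2F2 by 2.13 (SE 0.47) and NR2F1 by 1.60 (SE 0.62) in the authors' deposited table. ZEB1 (1.07, SE 0.51, q = 0.0454) and SNAI2 (0.98, SE 0.49, q = 0.0431) passed the threshold narrowly in that table. Both missed it with the authors' p-values adjusted within the comparison (adjusted p = 0.0693 and 0.0660), ZEB1 also among genes of at least 1 FPKM (0.0524) and SNAI2 after median centring (0.0526). SNAI1 had log2 changes of 0.73 in KO, 0.71 in Het and 0.42 in WT over time, and ZEB2 had 0.23, -0.24 and -0.05, none called in the authors' deposited table.

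**Figure D4:**
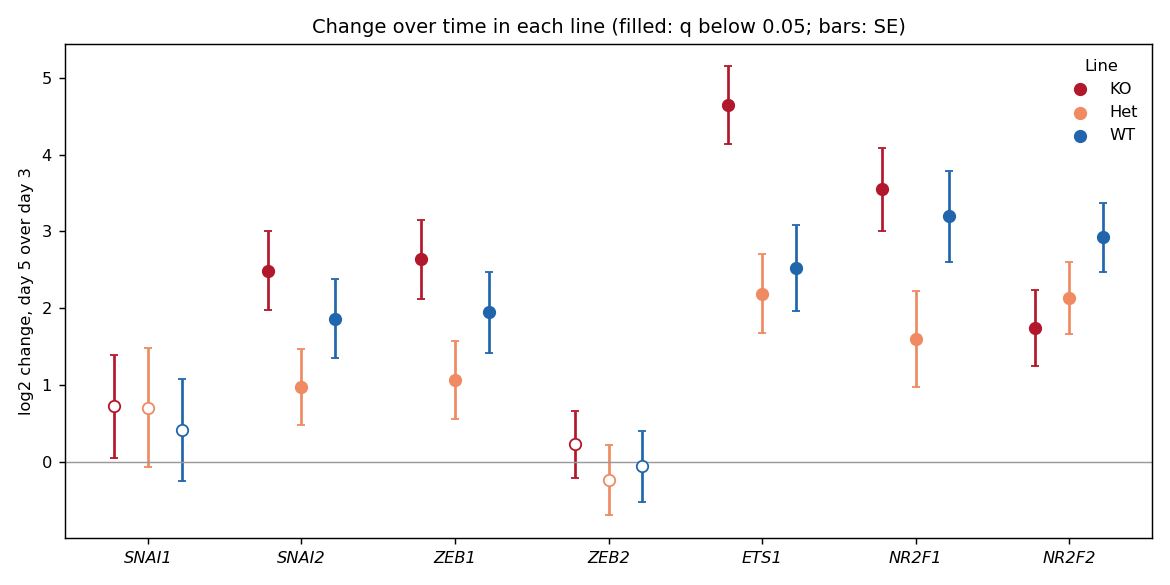
Log2 change from day 3 to day 5 (day 5 over day 3) of each tested member in KO, Het and WT, with bars of 1 SE. ETS1 has its highest value in KO (4.64, against 2.19 in Het and 2.52 in WT), and NR2F2 its lowest in KO (1.75, against 2.13 and 2.92).

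Whether a member's change over time differed between lines was tested as the difference of its log2 changes over the SE of that difference, which rests on Cuffdiff's scores. No values per library were at hand for a test over samples. By the authors' scores, ETS1 rose by 2.12 more in KO than in WT on the log2 scale (SE 0.75, unadjusted p = 0.00502), with a Benjamini-Hochberg adjusted p of 0.351 over 14143 genes. Against Het, by the authors' scores, its excess in KO was 2.45 (SE 0.72, unadjusted p = 0.000665, adjusted p = 0.215). With SEs rescaled to the deposited p-values, these adjusted p-values were 0.00055 and 0.000542. Of 7 members, 0 passed after adjustment for KO minus WT, where 0.318% of all genes passed, and 1 had an unadjusted p under 0.05. For KO minus Het 0 passed, where 0.12% of genes passed, and 4 had an unadjusted p under 0.05, namely SNAI2, ZEB1, ETS1 and NR2F1. For Het minus WT 0 passed, where 0.112% of genes passed, and 0 had an unadjusted p under 0.05. With rescaled SEs the counts that passed were 1, 1 and 0, where 5.19%, 1.39% and 1.16% of genes passed, and ETS1 was the member in both. By the authors' scores, NR2F2 rose less in KO than in WT, with a difference of -1.18 (SE 0.67, unadjusted p = 0.0777), and with rescaled SEs its adjusted p was 0.0916. On simulated data for KO minus WT, a true difference of 2 on the log2 scale was recovered in 18% of changed genes, and in 66% with rescaled SEs. The simulated noise was itself drawn with the rescaled SEs, so these shares cannot say which SEs suit the data.

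Transcripts within 20 kb of a member were looked up in the same table. FLJ42709 (chr5:92745064-92917003), which ends 2039 bases before NR2F1, was at 6.35 FPKM in KO, 3.64 in Het and 1.64 in WT at day 5, and at 1.98 FPKM in KO, 2.97 in Het and 0.852 in WT at day 3. Like NR2F1, it was highest in KO at day 5 and lowest in WT at day 3, and both edited lines lay above WT on both days. It was called for KO against WT at day 5 (log2 change 1.96, SE 0.74, q = 0.00126), for Het against WT at day 3 (1.80, SE 0.82, q = 0.0105) and over time in KO (1.68, SE 0.68, q = 0.0137) in the authors' deposited table.

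ZEB1-AS1 (chr10:31605456-31608024), which ends 76 bases before ZEB1, was at 4.94 FPKM in KO, 5.66 in Het and 3.55 in WT at day 5, and at 0.964 FPKM in KO, 1.27 in Het and 0.994 in WT at day 3. It rose over time in KO (log2 change 2.36, SE 0.66), Het (2.16, SE 0.63) and WT (1.84, SE 0.67) in the authors' deposited table. For KO against WT at day 5, where ZEB1 was called, ZEB1-AS1 had a log2 change of 0.47 with q = 0.561 in the authors' deposited table. The difference between these changes was not tested. ZEB2-AS1 shares its listed locus with ZEB2. It was at 2.36 FPKM in KO, 3.56 in Het and 6.66 in WT at day 5, and at 2.52, 4.38 and 6.88 FPKM at day 3. No comparison called it, but its SEs of 5.36 to 8.34 on the log2 scale leave the tests unable to show a change. MIR1469, inside the NR2F2 locus, is listed at 0 in all 6 groups. Use of strand in the counting is not given in the sources used here, so reads of overlapping transcripts cannot be told apart.

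**Figure D5:**
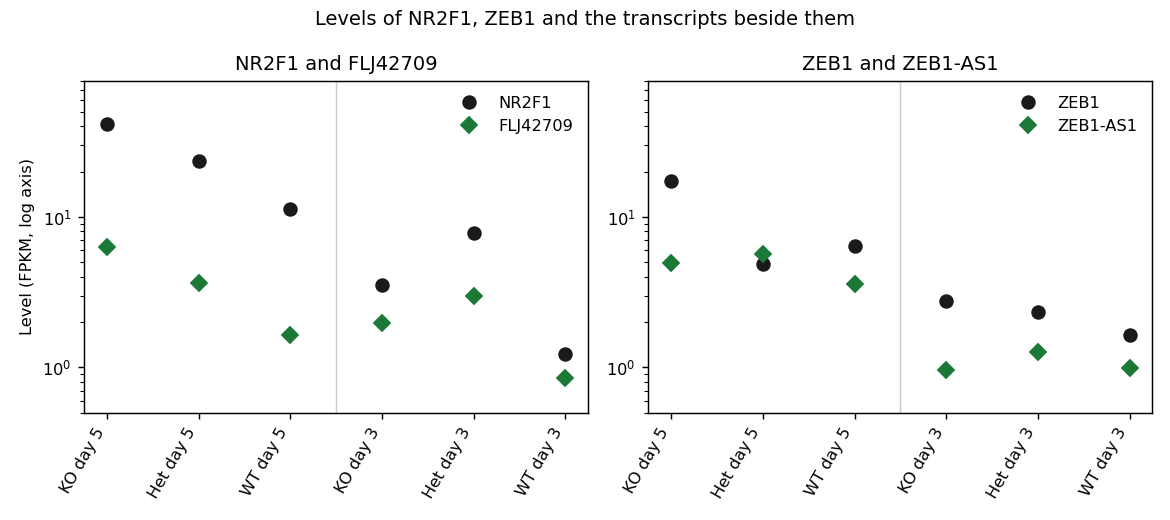
FPKM (log axis) of NR2F1 with FLJ42709 and of ZEB1 with ZEB1-AS1 in KO, Het and WT at day 5 and day 3, from the authors' deposited table. FLJ42709 and NR2F1 are both highest in KO at day 5 (6.35 and 41.1 FPKM) and lowest in WT at day 3, while ZEB1-AS1 is highest in Het at day 5 (5.66 FPKM) and ZEB1 in KO at day 5 (17.2 FPKM).

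Of the close relatives of the members, SNAI3, TWIST2, ERG, FLI1, SCRT1 and SCRT2 stayed below 1 FPKM in all 6 groups and were not tested. Of the 2 relatives tested, the nuclear receptor gene NR2F6 rose in KO against WT at day 5, with 21.0 FPKM in KO and 9.51 FPKM in WT (log2 change 1.14, SE 0.52, q = 0.0182). In WT it fell over time, to 9.51 FPKM at day 5 against 30.5 FPKM at day 3 (-1.68, q = 0.00126 in the authors' deposited table). ETS2 was called in no comparison.

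Of 26 EMT effectors and targets listed, 25 were in the authors' deposited table. For KO against WT at day 5, 7 of 21 tested were higher and 0 lower, where 7.58% of all tested genes were higher and 5.68% lower. The list's median log2 change was 0.51, against 0.03 over all tested genes. The highest among them were ESRP1, an epithelial splicing factor (3.05, SE 1.07), TGFB2, a TGF-beta ligand (3.01, SE 0.68), CDH6, a cadherin of the crest (2.64, SE 0.47), and CDH1 (2.40, SE 0.69) in the authors' deposited table. ESRP1 was below 1 FPKM in both groups, at 0.718 in KO and 0.0867 in WT, and TGFB2 was at 3.50 and 0.435 FPKM. The 7 genes thus held epithelial genes (CDH1, EPCAM, ESRP1 and DSP, a desmosome protein) beside CDH6, TGFB2 and FN1, a fibronectin. CDH1 was at 1.43 FPKM in KO, 0.193 in Het and 0.271 in WT at day 5, and at 7.83 FPKM in KO, 0.442 in Het and 1.01 in WT at day 3. CDH2, the neural cadherin, was at 101 FPKM in KO, 106 in Het and 134 in WT at day 5 and was called in no comparison. CDH1 and EPCAM are also among the 6 surface ectoderm markers, but the other markers of that list were near 0. KRT5, KRT14, TP63 and GATA3 were each below 0.5 FPKM in all 6 groups. GATA3 was at 0.116 FPKM in KO, 0.144 in Het and 0.130 in WT at day 5. At day 3 it was at 0.345 FPKM in KO, 0.159 in Het and 0.0110 in WT.

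At day 3, KO against WT had 7 higher and 0 lower of 21 tested, where 4.34% of all tested genes were higher and 5.17% lower, and the median was 0.56 against -0.02 over all genes. ESRP1 (3.77, SE 0.80), CDH6 (3.41, SE 0.49), CDH1 (2.96, SE 0.62) and DSP (2.06, SE 0.48) were at the top in the authors' deposited table. Markers of pluripotent cells also differed, but not all in the same direction. The 6 markers summed to 204 FPKM in KO, 101 in Het and 153 in WT at day 3. NANOG was then at 6.76 FPKM in KO, 0.797 in Het and 1.03 in WT, and TDGF1 at 7.62, 0.531 and 0.467 FPKM. PRDM14 was lower in KO than in WT, at 9.38 FPKM in KO, 1.83 in Het and 14.3 in WT at day 3. POU5F1 was at 67.5, 16.4 and 45.7 FPKM. At day 5 the 6 markers summed to 63.6 FPKM in KO, 71.1 in Het and 79.6 in WT. DPPA4 carried that order (34.6, 46.9 and 59.5 FPKM), and PRDM14 shared it below 1 FPKM. POU5F1 (8.56, 4.79 and 3.61 FPKM), NANOG (1.25, 0.944 and 0.798 FPKM), TDGF1 (1.27, 0.395 and 0.510 FPKM) and ZFP42 (17.5, 17.4 and 14.5 FPKM) were each highest in KO. The part of such cells in the epithelial genes was not tested.

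Het against WT had 1 higher and 0 lower of 19 at day 5, where 1.14% of all tested genes were higher and 1.02% lower (median -0.02 against -0.03 over all genes). At day 3 it had 2 higher and 2 lower of 20, where 1.68% and 4.63% of all were (median -0.13 against -0.04). The gene higher on both days was CDH6, by 2.23 at day 5 and 3.25 at day 3 in the authors' deposited table. KO against Het had 5 higher and 1 lower of 22 at day 5, where 5.55% and 2.51% of all were (median 0.28 against 0.05). At day 3 it had 7 higher and 1 lower of 20, where 2.3% and 0.54% of all were (median 0.51 against 0.01). ID2, an inhibitor of basic helix-loop-helix factors, was the gene lower on both days.

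Over time, KO had 5 higher and 3 lower of 21, where 7.29% of all tested genes were higher and 4.53% lower (median -0.28 against 0.08 over all genes). Het had 4 higher and 1 lower of 19, where 4.74% and 2.83% of all were (median 0.31 against 0.05). WT had 6 higher and 3 lower of 20, where 11.2% and 10.4% of all were (median 0.14 against 0.01). CLDN6, a tight-junction claudin, fell over time in all 3 lines (-2.86 in KO, -1.16 in Het and -2.08 in WT), and CDH1 fell in KO (-2.46) and WT (-1.90), in the authors' deposited table. SPARC, a matrix protein, was among the genes that rose in all 3 lines.

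Among 21 crest transcription factors of the specification and migration stages, 12 were higher and 1 lower of 21 tested for KO against WT at day 5, where 7.58% of all tested genes were higher and 5.68% lower. The list's median was 1.90, against 0.03 over all genes. FOXD3 (log2 change 6.56, SE 0.90), SOX10 (6.48, SE 0.68), PAX7 (4.43, SE 0.74) and TFAP2A (3.90, SE 0.59), all crest specifiers, had the highest called changes in the authors' deposited table. The gene that was lower was PRDM1. For Het against WT at day 5, 9 of 20 were higher and 0 lower, where 1.14% and 1.02% of all were (median 0.80 against -0.03). For KO against Het at day 5, 7 of 21 were higher and 0 lower, where 5.55% and 2.51% of all were (median 0.91 against 0.05).

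At day 3, 9 crest factors were higher and 1 lower of 19 for KO against WT, where 4.34% and 5.17% of all tested genes were (median 1.57 against -0.02 over all genes). Het against WT had 6 higher and 0 lower of 19, where 1.68% and 4.63% of all were (median 0.49 against -0.04). KO against Het had 4 higher and 1 lower of 19, where 2.3% and 0.54% of all were (median 0.32 against 0.01). Over time, 11 rose and 2 fell of 21 in KO, where 7.29% of all rose and 4.53% fell (median 0.91 against 0.08). In Het 7 rose and 3 fell of 20, where 4.74% and 2.83% of all did (median 0.78 against 0.05). In WT 8 rose and 0 fell of 16, where 11.2% and 10.4% of all did (median 0.58 against 0.01).

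For each member, the genes whose centred log2(FPKM + 0.1) levels lay nearest over the 6 groups were found among 10891 genes reaching 5 FPKM, by root mean square distance in log2 units. ETS1 and NR2F1 appeared in each other's nearest pair at a distance of 0.54, behind LOC541471 for ETS1 (0.49) and HAPLN1, a hyaluronan link protein, for NR2F1 (0.39). NR2F2 had SAMD4A (0.21) and COL5A2, a fibrillar collagen (0.22). COL5A2 was at 8.07, 22.2 and 31.9 FPKM in KO, Het and WT at day 5, the order of NR2F2. ZEB1 had CPNE8 (0.14) and ADAM9, a metalloprotease (0.20), of which ADAM9 was at 54.1, 13.3 and 21.8 FPKM in KO, Het and WT at day 5.

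SNAI2 had KDELR3 and POU3F2 (0.22 each), SNAI1 had SLC35B2 (0.03) and SLC25A5 (0.04), and ZEB2 had UHRF1BP1 (0.05) and PRRC2B (0.06). Small distances for SNAI1 and ZEB2 stand beside levels that themselves varied little. TWIST1 had C20orf112 (0.10) and LYSMD1 (0.11), but the added 0.1 FPKM flattens its levels. Of the 16 genes named this way, 8 were named again with 1 FPKM added.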

How the data were processed

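Poly-adenylated RNA was sequenced from 16 libraries in 8 groups of 2. Per the submitters' processing notes, TopHat2 2.1.1, hg19 and Cuffdiff 2.2.1 were used; annotation and filters were not given in the sources used here. Each deposited line is 1 gene in 1 comparison, and the table has 349260 of them, for 23284 genes in 15 comparisons of 6 groups, of which 9 were used for the named comparisons and all 15 for pairs of groups. The authors deposited FPKM per gene and group, the log2 fold change, a test score, and a p-value with a q-value that equals a Benjamini-Hochberg adjustment over all 222234 tests. The second FPKM column of that table holds the level of the other group. No library values were at hand, so Cuffdiff's deposited test was used as it stands.

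The SE of a log2 change is the change over its test score. Group variances came from splitting these over the 15 comparisons. Differences between time changes were tested 2-sided against the normal curve, with Benjamini-Hochberg adjustment over genes. Scores were 0.547 to 0.713 times the normal deviate of the deposited p-value, and rescaled SEs carry that factor. On simulated data with 14143 genes, the KO minus WT test recovered 0%, 18%, 72% and 98% of differences of 1, 2, 4 and 6 with 0 false calls, and 10%, 66%, 94% and 96% with 8 false calls when rescaled. Noise was drawn with the rescaled SEs in both cases, so the simulation does not choose between the 2 kinds of SE.

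The members and gene lists were chosen with earlier results of these data known. Genes named are the 8 members, up to 4 called genes per list with the largest changes, and the 2 nearest genes per member; CDH2, SPARC, EPCAM, DSP, FN1, ID2, PRDM1, FOXB1, the neighbours and markers were named beside them after their values were seen. Transcript GC content was known for 87.5% of 15705 tested genes and centred in 20 bins. Python 3.11.15, numpy 2.4.6, pandas 2.3.3, scipy 1.17.1 and matplotlib 3.10.9 were used. Alternatives were adjustment within 1 comparison, median centring, GC bins, a filter at 1 FPKM, pseudocounts of 0.1 and 1 FPKM, and rescaled SEs. Calls between groups under median centring and GC bins were remade with rescaled SEs, so they change the test as well as the centre.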

Additional observations from a re-analysis of the deposited data

How the results depend on the processing

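No call changed direction under the alternatives run. SNAI1 in KO against WT at day 3, which was not called, had a log2 change of -0.15 as reported and 0.09 within GC bins. Of the 27 calls on members, 22 were kept with Benjamini-Hochberg adjustment within each comparison and 26 with median centring. Within GC bins 25 were kept, among genes of at least 1 FPKM 26, and with calls remade from rescaled SEs 27. Remaking calls from rescaled SEs was an alternative chosen after seeing the data. Those SEs were fitted to the deposited p-values, so that keeping the calls was largely fixed in advance. With adjustment within the comparison, the count of members called was 1 for Het against WT at day 3, 0 for Het against WT at day 5 and 3 for day 5 against day 3 in Het. Within GC bins it was 1 for Het against WT at day 3. For KO against Het at day 3 it was 1 with median centring, with GC bins and with rescaled SEs. Calls under median centring and GC bins were themselves remade with rescaled SEs, which alone gave this call of NR2F1. Centring is therefore no separate support for it. For the difference of time changes, rescaled SEs gave 1 member for KO minus WT and 1 for KO minus Het. The filter at 1 FPKM in all groups compared left those differences as they were. Over all genes, the filter at 1 FPKM gave 1264 calls for KO against WT at day 5 (1981 in the deposited table), 749 for KO against Het at day 5 (1209), 201 for Het against WT at day 5 (314), 221 for KO against Het at day 3 (416) and 1116 for day 5 against day 3 in KO (1773). Adjustment within the comparison gave 111 for Het against WT at day 5 and 206 for KO against Het at day 3. The cause of these shifts was not tested, apart from the smaller number of genes under the filter. No paired analysis was possible because the table gives 1 value per group, and for the same reason no replicate could be left out. The 2 wild-type lines could not be compared, and TWIST1 was left untested in the deposited table.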
